A study of Mus musculus with 9 samples.

Results

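The genes described here are 9 genes that mark how macrophages are polarized, chosen by symbol: Arg1, Nos2, Chil3, Retnla, Mrc1, Il10, Mgl2, Clec10a and Irf4. Of these 9, 6 had a row among the 18049 genes of the deposited table. Chil3, Retnla and Mgl2 had none, whether searched by symbol, by Ensembl identifier or by older symbol. Of the genes with a row, 403 had no read in any of the 9 libraries, but the table also holds columns of other samples. Whether genes were left out of it for their level was not tested. The lack of a row is therefore not read as a level of these 3 genes, and no value is given for them.

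Bulk RNA sequencing had been done on 9 clones of primary cells (MPC) grown from tumors that arose in WTg mice. These mice carry EL1-Luc/EL1-Tag, transgenes in which the pancreatic elastase promoter drives luciferase and the SV40 large T antigen, and CAG-Mettl3, in which the CAG promoter drives Mettl3, the catalytic subunit of the m6A RNA methyltransferase. The labels give all 9 clones this genotype, and each was a colony picked from cells that had attached and been passaged in DMEM with 10% fetal bovine serum. The labels give the tissue as pancreas, the cell type as fibroblasts and the treatment as none, although a protocol field names NMS-P937, an inhibitor of the mitotic kinase PLK1, at 80 nM for 24 h. No age is given for the mice.

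Macrophages take up different programs of gene expression according to the signals they meet. Interferon-gamma and bacterial products drive classical activation, in which the nitric oxide synthase Nos2 consumes arginine, whereas IL-4 and IL-13 act through the receptor chain Il4ra and the factor STAT6 to induce alternative activation, in which Arg1 breaks arginine down to ornithine. Macrophages of tumors often show features of the second program, with the mannose receptor Mrc1 (CD206) as its most used surface marker.

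The table's column names carry 3 prefixes, called A, B and C here, which head 1, 4 and 4 libraries, and the sources used here do not say what they stand for. Recovered depth was 12198042 reads in library A and 16526379 to 20453901 in the others, so that 3 reads, taken as the detection floor, equalled 3.79 to 6.56 normalized counts. Mettl3, the gene of the CAG transgene that the labels give to all 9 clones, was at 2184 normalized counts in library A and at 468 to 621 in the other 8. Xist was at 29664 to 32912 in the B libraries and at most 8.39 elsewhere, and Ddx3y, on the Y chromosome, was at 0 in the B libraries and at 2376 to 2720 elsewhere, so prefix B and the sex of the cells cannot be told apart. Library C3 stood apart in pancreatic acinar genes, with a summed level of 2415 for 6 markers against 144 to 396 in the other libraries.

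The cell type label was checked against defining markers. All 10 macrophage markers (such as Adgre1, Csf1r and C1qa) were above the floor in all 9 libraries, with a summed level of 519914 to 819344 normalized counts. The lysozyme gene Lyz2 was by far the largest term of this sum, at 287615 to 577311, so values set against the sum below weigh Lyz2 most. Of 10 fibroblast markers (such as Col1a1 and Pdgfra), 9 were above the floor in all libraries, with sums from 121830 to 434147; Lum was above it in 6. The label of fibroblasts therefore names only one of the marker sets found, and since fewer cells of a type and less RNA per cell cannot be told apart in bulk samples, no level below is a level per macrophage. For other blood cells, the T cell markers Cd4 and Trac summed to 26.3 to 296. Of 8 dendritic cell markers 3 had a row, with sums of 637 to 1603. Cd3e, Cd3g, Cd3d, Cd8a and all B cell markers listed had no row, which is not read here as a level. Of 5 epithelial markers, Cdh1 (8.91 to 152 normalized counts) and Krt19 (7.23 to 145) were above the floor in all libraries. Epcam had no read in any library.

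The arginine enzymes came first. Arg1 (ENSMUSG00000019987, chr10:24915207-24927470 in GRCm38.p6), the arginase of alternatively activated macrophages, averaged 103 ± 112 normalized counts (SD, n = 9) with a median of 97.5. Its level was 4.38 in library A, 40.7, 109.7, 86.8 and 99.7 in B1 to B4, and 380.3, 99.9, 5.60 and 97.5 in C1 to C4. Library C1 therefore stood above all the others and A and C3 far below them, and the 5 libraries from B3 to B2 in the order of levels lay close together. C1 was 3.47-fold above the next library, B2, and its counting interval of 338 to 426 at 95% lay apart from that of B2, 86.5 to 137. Arg1 rested on 2 reads in A and on 4 in C3, so in A it was under the detection floor. Intervals here are exact Poisson limits and cover counting error only, while the floor is a fixed 3 reads.

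The macrophage sum of C1 was 540457, among the 3 lowest. Per 10000 counts of macrophage markers, among which Lyz2 weighs most, Arg1 was at 7.04 in C1. The median was 1.19 and the low 0.0696 in A. The part of macrophage content in the Arg1 of C1 was not tested further. Without C1, the mean of Arg1 was 68.0.

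Nos2 (ENSMUSG00000020826, chr11:78920787-78960226), the inducible nitric oxide synthase of classical activation, was not detected above the floor in any library. It had 10 reads in all, with 0 to 3 in each library, and its level ran from 0 to 4.68 with a median of 1.29. A, B3 and C3 had no read. Nos2 was thus at or under the limit of detection where Arg1 was highest and where it was lowest, and no relation between the pair was computed.

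**Figure D1:**
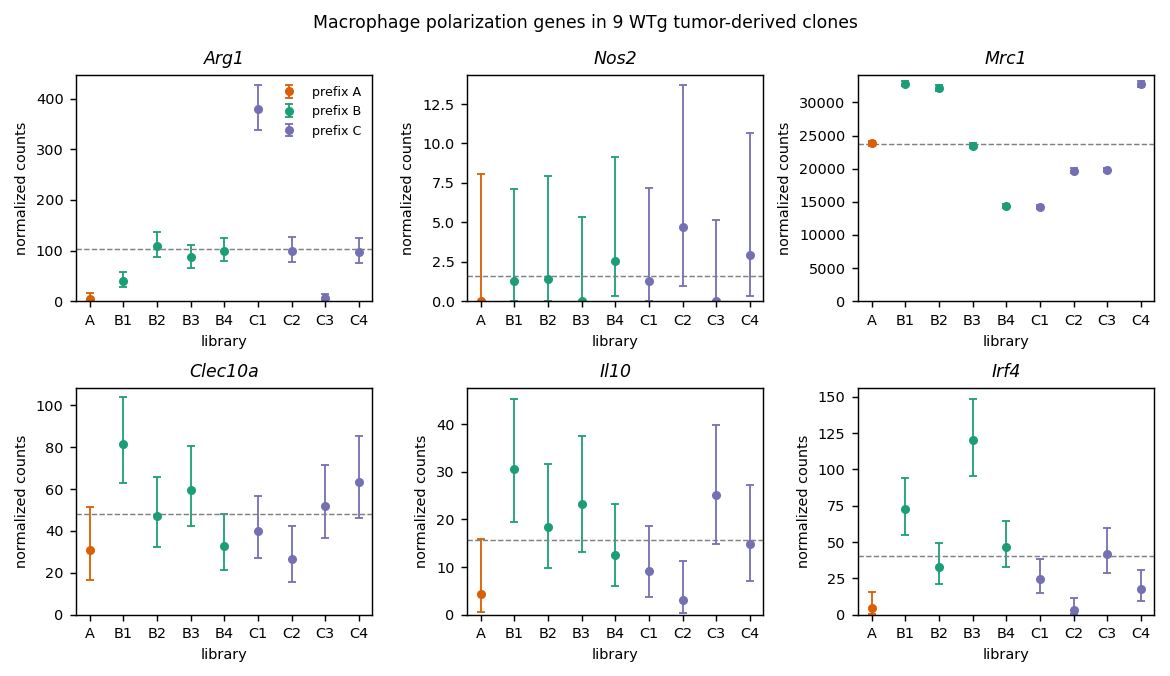
Levels of the 6 genes with a row, in normalized counts on linear axes from 0, in each of the 9 libraries; points are libraries, bars are exact Poisson intervals at 95% (counting error only), colours are the column-name prefixes and the dashed line is the mean. Arg1 is at 380.3 in C1 and under 110 elsewhere, Nos2 never exceeds 4.68, and Il10 and Irf4 are at 2 reads in both A and C2.

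The other enzymes and transporters of arginine, polyamine and nitric oxide metabolism were mostly measured. Of 16 genes listed, 15 had a row and 11 were above the floor in all libraries. Ass1 and Asl, which rebuild arginine from citrulline, were at 2802 to 4756 and 668 to 890 normalized counts. Odc1, which turns ornithine into putrescine, was at 1571 to 2755, and its highest level was in C1. Slc7a2, an arginine transporter, varied more, from 416 in A to 2765 in B4. Arg2, the mitochondrial arginase, was at 0 to 23.2 and above the floor in 6 libraries, and the neuronal and endothelial synthases Nos1 and Nos3 were above it in 6 and 3.

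The lectin receptors varied less between clones than the other polarization genes above the floor. Mrc1 (ENSMUSG00000026712, chr2:14229414-14332023) averaged 23676 ± 7465 normalized counts (SD, n = 9), from 14215 in C1 through a median of 23435 in B3 to 32832 in B1. The highest 3 libraries, B2, C4 and B1, lay between 32206 and 32832 and the lowest pair, C1 and B4, at 14215 and 14329, so both ends held B and C libraries alike. The range was 2.31-fold. Library C1, which had the most Arg1, had the least Mrc1, but over the 9 libraries the 2 genes showed no relation that passed a test (Pearson's r = -0.20, exact permutation p = 0.60, Spearman's rho = -0.43, exact permutation p = 0.25).

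Clec10a (ENSMUSG00000000318, chr11:70166623-70170836), a galactose-type C-type lectin (MGL1) of macrophages and dendritic cells, was measured on 14 to 64 reads. It averaged 48.1 ± 17.9 normalized counts (SD, n = 9), from 26.5 in C2 through 47.0 in B2 to 81.4 in B1. No 2 libraries next to each other in the order had counting intervals that lay apart. Its paralog Mgl2 (MGL2, ENSMUSG00000040950, chr11:70130125-70137542) starts on the same chromosome with 29080 bases between the genes, and any reads of Mgl2 that the counting had given to Clec10a could not be separated here.

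Of the other C-type lectins, 9 of the 11 listed had a row and all 9 were above the floor in all libraries. Mrc2, a collagen-binding relative of Mrc1 that fibroblasts also express, was at 3057 to 12096 normalized counts. Clec7a (Dectin-1), the receptor for fungal glucans, ranged from 236 in A to 3002 in B3. Cd207 (langerin) ranged from 21.9 in C2 to 1006 in C3, with B3 at 891, and thus spanned a wider fold range than Clec7a or Mrc2. Cd209a and Clec9a, markers of dendritic cells, had no row.

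Il10 (ENSMUSG00000016529, chr1:131019845-131024970), the anti-inflammatory cytokine, was the one secreted member with a row. It rested on 2 to 24 reads and averaged 15.7 ± 9.45 normalized counts (SD, n = 9). Its level was 4.38 in A, 30.5, 18.5, 23.2 and 12.6 in B1 to B4, and 9.05, 3.12, 25.2 and 14.8 in C1 to C4. B1, C3 and B3 were the highest and A and C2, at 2 reads each, were under the floor, but neighbours in this order did not differ beyond counting error. Chil3 (Ym1, ENSMUSG00000040809, chr3:106147554-106167564) and Retnla (RELM-alpha, ENSMUSG00000061100, chr16:48842609-48844461), secreted proteins induced by IL-4, had no row, and of 7 relatives of these genes Chil1 alone had one, with 13 reads in all and a highest level of 7.64 in B1.

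The chain through which IL-10 acts was present in all libraries. Of 12 genes listed, 9 had a row and all 9 were above the floor throughout. Il10ra, the ligand-binding receptor chain, was at 1353 to 3375 normalized counts, and Stat3, which the receptor activates, was at 4291 to 6395. Maf, a transcription factor that promotes Il10 in macrophages, was at 5653 in A and at 6952 to 18434 elsewhere. The highest Maf was in B3 and the lowest 2 levels were in A and C2, the libraries with the least Il10.

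Irf4 (ENSMUSG00000021356, chr13:30749233-30766981), a transcription factor that takes part in alternative activation, averaged 40.4 ± 37.0 normalized counts (SD, n = 9). It was at 4.38 in A, at 72.5, 32.8, 120.1 and 46.7 in B1 to B4, and at 24.6, 3.12, 42.0 and 17.7 in C1 to C4. B3 was the highest, 1.66-fold above B1 with counting intervals that lay apart (95.7 to 149 and 54.9 to 94.0), and A and C2 were under the floor at 2 reads each. Of its 8 relatives in the IRF family, 7 were above the floor in all libraries. Irf8, which drives myeloid development, was at 1501 to 3486 and Irf5, which promotes classical activation, at 1731 to 4600. Both were lowest in A and highest in B3, the library in which 17.9% of all genes averaging 10 or more were highest.

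For 2 genes with a row, Irf4 and Mrc1, RefSeq (GRCm38.p6) gave a promoter, and of each the 30 bases around a matched motif are shown. Capitals mark the match. Positions count back from the annotated start.
Irf4 (chr13:30749195-30749224, plus strand, -38 to -9): cgcctccggctcTATAAAgttcctctttct
Mrc1 (chr2:14229191-14229220, plus strand, -223 to -194): tcacttctcccCACTTCCTgcgttttctcc
The Irf4 match is a TATA box (TATAAA, first base at -26), which 13.6% of 32851 promoters of the same length held on either strand. The Mrc1 match is a PU.1 site (AGGAAGTG on the opposite strand, first base at -212), held by 4.07%. Neither promoter, from 250 bases before to 50 after the start, held the STAT6 letters TTCNNNNGAA (6.95% of promoters) or the interferon-response letters GAAANNGAAA (3.44%) on either strand. These matches are descriptions of letters and were chosen with the sequences in view.

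The spread between clones set the genes apart from each other. Over 14705 genes averaging 10 or more normalized counts, the SD of the log2 level over the 9 libraries had a median of 0.25 and a 95th percentile of 1.35. Arg1 had an SD of 2.01 on this scale, above 98.3% of these genes, and Irf4 one of 1.62, above 96.7%. Il10 (1.02, above 91.8%) came next, and Clec10a (0.52, above 76.7%) and Mrc1 (0.47, above 73.3%) varied least of the 5, though more than the median gene. The values of Il10 and Irf4 lie among genes of few reads, where counting error adds to the spread. Clec10a also rested on 14 to 64 reads, and the SD of Arg1 includes levels near the floor in A (4.38) and C3 (5.60). The percentiles are against genes of any level from a mean of 10 up, not against genes of like level.

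**Figure D2:**
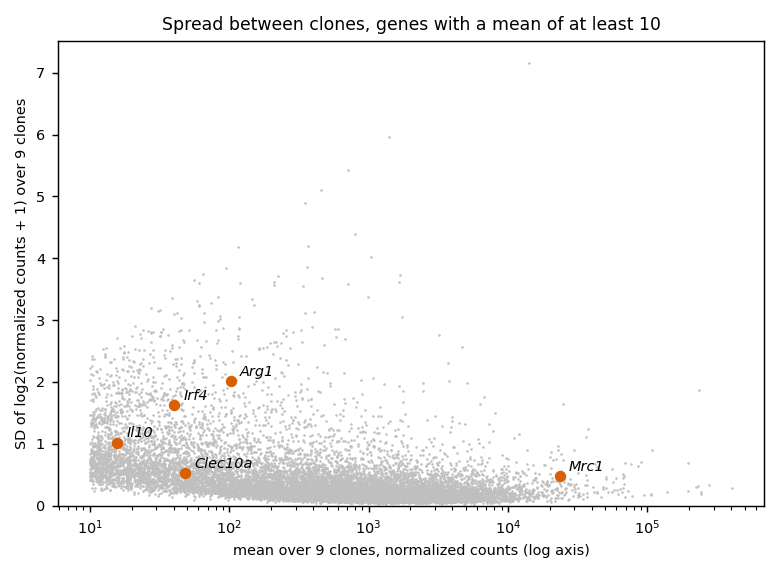
Mean level over the 9 clones (normalized counts, log axis) against the SD of log2(normalized counts + 1) over the clones; each grey point is a gene averaging 10 or more counts, and the orange points are the 5 polarization genes that pass. Arg1 and Irf4 lie above the 95th percentile of 1.35, and Mrc1 lies at 0.47 among the genes with the most counts.

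Whether the genes varied together across clones was tested for the 5 genes with more than 3 reads in at least 7 libraries, which gave 10 pairs. Il10 rose and fell with Irf4 (Pearson's r = 0.91, exact permutation p = 0.0014, adjusted over 10 pairs 0.0098; Spearman's rho = 0.80, p = 0.014, adjusted 0.069) and with Clec10a (r = 0.87, exact permutation p = 0.0020, adjusted 0.0098; rho = 0.87, p = 0.0045, adjusted 0.045). The other 8 pairs did not pass, with Clec10a and Irf4 nearest (r = 0.72, exact permutation adjusted p = 0.10). Libraries A and C2, at 2 reads of Il10 each, were the farthest from the median of Il10. Without A alone, both relations passed by Pearson's r (0.88 for Irf4 and 0.85 for Clec10a, exact permutation adjusted p = 0.037 each, n = 8). By Spearman's rho neither passed without A (0.71 for Irf4, exact permutation adjusted p = 0.14, and 0.81 for Clec10a, adjusted p = 0.093). Without A and C2, r was 0.63 for Irf4 (exact permutation adjusted p = 0.39) and 0.74 for Clec10a (adjusted p = 0.39) over 7 libraries, so neither relation passed without these 2. Centred within prefixes B and C, r was 0.85 (exact permutation adjusted p = 0.20) and 0.86 (adjusted p = 0.10) over 8 libraries.

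**Figure D3:**
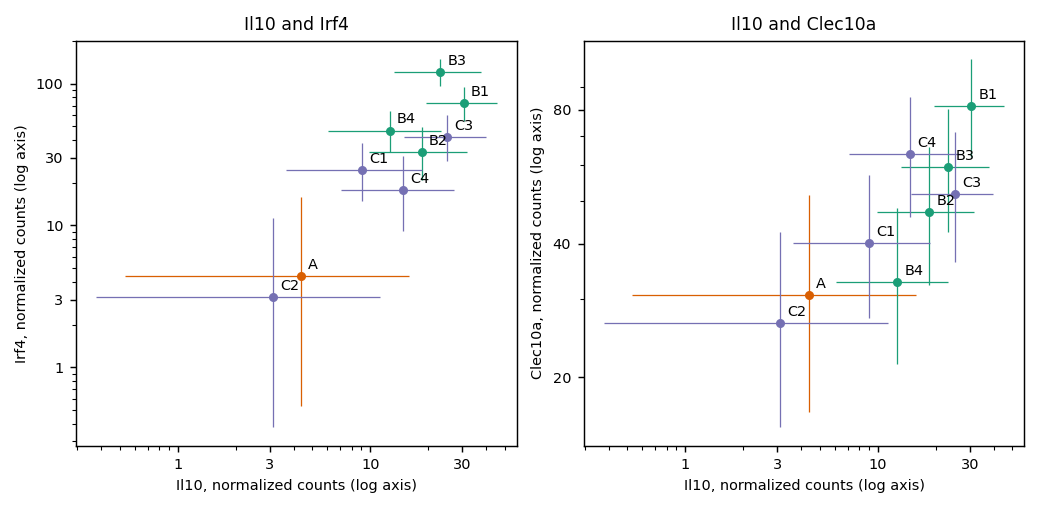
Il10 against Irf4 (left) and against Clec10a (right), in normalized counts on log axes, with 1 point per library, bars for exact Poisson intervals at 95% and colours for the prefixes. Libraries A and C2, at 4.38 and 3.12 of Il10, are at the low end in both plots, and without them r is 0.63 and 0.74.

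The levels of the markers moved with some of these genes. Across the 9 libraries, which share their scaling, Pearson's r with the fibroblast sum was -0.93 for Irf4, -0.75 for Il10, -0.63 for Clec10a, -0.34 for Arg1 and -0.08 for Mrc1. With the macrophage sum it was 0.44, 0.47, 0.61, 0.16 and 0.66 in the same order. The fibroblast sum was highest in C2 (434147) and A (384564) and lowest in B3 (121830). Its largest terms were Col1a1, Col1a2 and Acta2, averaging 85587, 68918 and 66628 normalized counts. Per unit of macrophage marker level, Il10 still varied with Irf4 (r = 0.90, exact permutation adjusted p = 0.019) and with Clec10a (r = 0.84, adjusted p = 0.025), ratios that share 1 denominator. Spearman's rho on these ratios passed for Irf4 (0.90, exact permutation adjusted p = 0.020) and did not for Clec10a (0.77, adjusted p = 0.11). The part of the fibroblast markers in these relations was not tested.

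The genes most like each of the 5 in their log2 level were found among 14671 genes, over the 9 libraries. For Arg1 they were Akt1s1 (r = 0.95), Prkg2 (r = 0.94) and Usp50 (r = 0.93), and 17 genes reached 0.9. For Mrc1 they were Ms4a6c (r = 0.96), Lpcat2 (r = 0.96) and Lifr (r = 0.95), with 17 genes at 0.9. Clec10a was most like Pdxk (r = 0.96), Pcca (r = 0.95) and Antkmt (r = 0.95), with 30 genes at that level. Many more genes followed Il10 and Irf4: 361 reached 0.9 with Il10, led by Vps37c (r = 0.999), Osbpl8 (r = 0.99) and Spsb2 (r = 0.98), and 621 with Irf4, led by Creg1, Fermt3 and Blvrb (r = 0.99 each). These are descriptions over 9 points that share depth and scaling.

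Because all clones form a single group, the sole split that the columns offer is by prefix, and the 4 B libraries were compared with the 4 C libraries. With limma and Benjamini-Hochberg adjustment over 16985 genes, 29 genes (0.171%) passed an adjusted p under 0.05, of which 12 (0.0707%) were higher in B and 17 lower. None of the 6 polarization genes passed, and 3141 of all genes had an unadjusted p under 0.05. Xist and Ddx3y were among the 29, and by these genes the comparison is also one of female with male cells, which cannot come from 1 mouse. Nothing in the labels says which clones within a prefix came from separate mice, so these p-values measure the spread between these libraries, which may be technical.

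Irf4 showed the widest difference of the 6, with 68.0 ± 38.4 normalized counts in B and 21.8 ± 16.1 in C (SD, n = 4 each). Its log2 difference was 1.85 (SE 0.71) with a limma adjusted p of 0.23, and the ranges overlapped, since C3 at 42.0 lay above B2 at 32.8. Il10 differed by 0.89 (SE 0.57, adjusted p = 0.42), Clec10a by 0.27 (SE 0.35, adjusted p = 0.70) and Mrc1 by 0.24 (SE 0.32, adjusted p = 0.70) on the log2 scale, B minus C. For Arg1 the mean level was 84.2 in B and 146 in C, while the mean log2 difference was 0.18 (SE 1.06, adjusted p = 0.94). The 2 scales thus gave opposite signs, with C1 high and C3 low within the same prefix. Nos2 differed by -0.35 (SE 0.67, adjusted p = 0.80) at levels under the floor.

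The pathways around these genes held 1 call, read beside the 0.171% of all genes. Of 14 other genes of alternative activation, 9 had a row and 8 were tested: Stab1, a scavenger receptor of macrophages, was higher in B (50714 to 68910 against 29019 to 35817 in C, log2 difference 0.88, SE 0.13, limma adjusted p = 0.048), and the other 7 did not pass. Stab1 was lowest in A, at 15791, and its adjusted p ran from 0.038 to 0.26 over the alternatives tried. The call was lost when any B library, C1, C2 or C4 was left out. The chemokines Ccl17, Ccl22 and Ccl24 and the ligand Pdcd1lg2, all induced by IL-4, had no row. Tgm2, a transglutaminase that IL-4 induces, was at 4882 to 9915, highest in C1, and the scavenger receptor Cd163 at 4.38 to 35.6.

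Of the IL-4, IL-13 and STAT6 pathway, 13 of 14 genes had a row, 12 were tested and none passed. The cytokine Il4 had no read in any library and Il13 no row. Its receptor and factor were present throughout: Il4ra was at 5775 to 12253 normalized counts and Stat6 at 4597 to 5480, a narrow range. Il4ra was lowest in C3, one of the libraries with little Arg1, but at 11240 in A, the other. The median log2 difference of the list was -0.04, beside 0.02 over all genes tested.

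Of 18 genes of classical activation, 13 had a row and all 13 were tested without a call, with a median difference of -0.0068. Il12a, Il12b, Il23a, Cxcl9 and Ccr7 had no row. The costimulatory molecule Cd86 was at 292 to 610 normalized counts, lowest in C2 and highest in C4. Of those measured, Tnf was at 434 to 1232 normalized counts, highest in A, Il6 at 31.8 to 579, highest in C2, and Il1b at 14.2 to 61.1. Ptgs2, the inducible cyclooxygenase, ran from 439 in C3 to 11188 in C1, so the library with the highest Arg1 also had the highest Ptgs2. Of the interferon-gamma and toll-like receptor pathway, Ifng had no row and the other 12 were tested without a call (median 0.21), with Tlr4 at 1525 to 2499.

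No gene was called among 9 of the IL-10 pathway (median difference 0.20), 14 of the arginine list (-0.01), 9 C-type lectins (0.32) and 7 of the IRF family (0.42). Irf8 came nearest, at 0.66 (SE 0.11, limma adjusted p = 0.070). The markers shifted without a call as well: the median was 0.43 over 10 macrophage markers and -0.68 over 10 fibroblast markers. The fibroblast markers did not all shift alike. Lum (2.07), Dcn (1.79) and Fap (0.20) were higher in B, and the other fibroblast markers listed were lower. With each library scaled to its macrophage markers, the log2 difference was 1.59 for Irf4 and 0.64 for Il10, and neither passed. The part of the fibroblast markers was not tested.

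**Figure D4:**
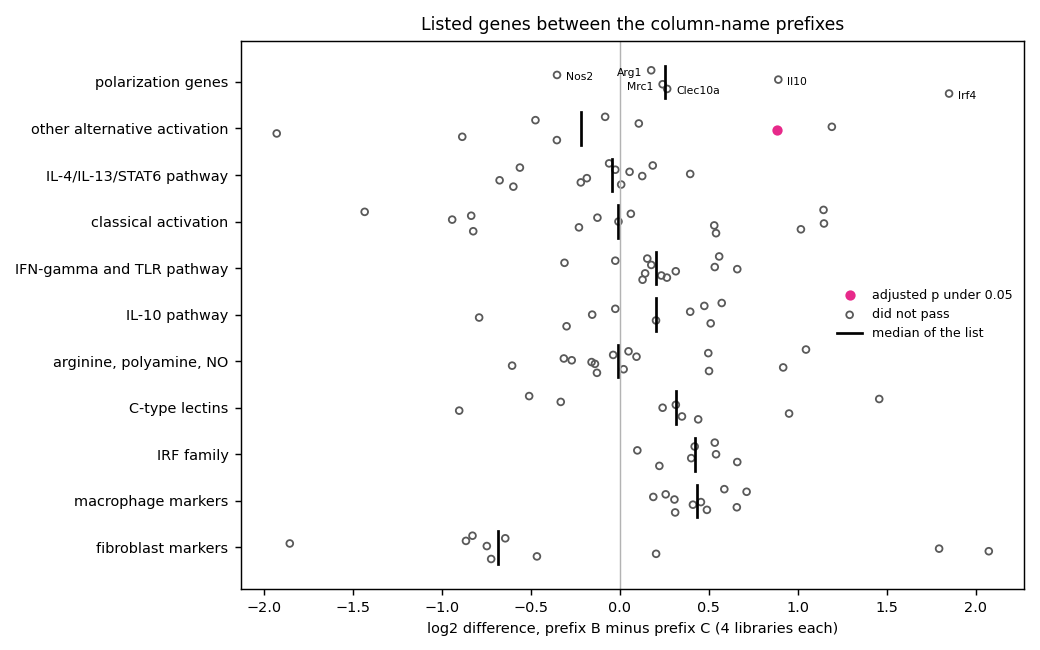
Log2 difference between the 4 B and the 4 C libraries (B minus C) for each tested gene of the polarization genes and 10 related lists; open points did not pass, the filled point has an adjusted p under 0.05 and vertical bars are list medians. Stab1 is the filled point, Irf4 at 1.85 is the rightmost of the polarization genes, and macrophage and fibroblast markers have medians of 0.43 and -0.68.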

How the data were processed

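RNA from 9 MPC clones was sequenced from TruSeq stranded libraries. The submitters' processing notes name FastQC 0.11.9, STAR 2.7.10, RSEM 1.3.3 and GRCm38. The authors deposited log2 values, and the values show that each library had been scaled by 1 factor and 4 added before the log2; the software used for scaling is not given in the sources used here. The table also holds 6 columns of per-sample values that belong to none of these samples, and they were not used in any step.

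Normalized counts are 2 to the power of the value, minus 4. The worth of 1 read was read from the spacing of low values, and all values under 1000 reads came out whole within 0.1 reads. Exact Poisson intervals (95%) and a floor of 3 reads per library were used. Of 18049 identifiers, 18033 matched the gene names given. Levels were not compared between genes, because no transcript lengths were used.

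Prefixes B and C were compared with limma 3.58.1 (R 4.3.3; lmFit, eBayes with trend) on log2(normalized counts + 1), for genes with a mean of at least 1, at an adjusted p under 0.05. On this scale changes of low genes are understated. Relations were tested over all pairings of the libraries on the same scale by an exact two-sided permutation test, and p-values were adjusted by Benjamini-Hochberg over the 10 pairs. The test was tested on simulated data. The genes named are the 9 members, genes of fixed pathway and marker lists that bear on a member, and for each member with more than 3 reads in at least 7 libraries the 3 genes with the highest r among genes averaging 10 or more. The members and lists were chosen with earlier results of these data known. Alternatives were other pseudocounts, filters, scalings and models, libraries left out, and centring within prefixes; those per macrophage marker level and without C1 were added after seeing the data. Levels and permutations were computed in Python 3.11.15 (pandas 2.3.3, numpy 2.4.6, scipy 1.17.1), and plots were drawn with matplotlib 3.10.9.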

Additional observations from a re-analysis of the deposited data

Results flagged for a closer look

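In 16 of 84 genes examined, 1 library's gap to its neighbour took up more of the range over the 9 libraries than Dixon's 95% limit allows. For normal data about 1 in 20 would be flagged, or 4.2 genes here. The gaps were taken on linear normalized counts, where that rate was not checked, and not on the log2 scale used elsewhere. The rule was run on the listed genes only, so its rate over all genes is not known. Of the polarization genes this was so for Arg1 in C1, at 380 normalized counts against 110 in the next library, a gap of 0.720 of the range. No other polarization gene was flagged. Library A held 7 of the 16: it was highest for Cd14 (6219, gap 0.723), Tnf (1232, gap 0.597), Nos1 (54.7, gap 0.550), Cxcl10 (91.9, gap 0.548), Jak1 (8558, gap 0.504) and Nfil3 (597, gap 0.498), and lowest for Cebpb (871 against 2651 in the next, gap 0.555). Library C2 was highest for Egr2 (654, gap 0.584) and Klf4 (2708, gap 0.507) and lowest for Clec4d (4149, gap 0.600). Library C4 was highest for Cdh1 (152, gap 0.683) and Clec4n (7334, gap 0.625), B3 for Marco (187, gap 0.602) and Fpr2 (136, gap 0.505), and C3 for Pparg (1044, gap 0.584).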

How the results depend on the processing

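No paired analysis was possible because the labels give 1 group, so that no replicate number recurs in another one. The mean levels of the 6 genes moved by less than 1 SD under other scalings. Leaving out 1 of 9 libraries cannot move a mean by 1 SD, so for this only ranges are given. With 1 library left out, the mean of Arg1 ran from 68.0 without C1 to 115, and that of Irf4 from 30.5 to 45.1. The count of 29 genes between prefixes became 15 with no filter on low values, 17 without a trend and, with each library scaled to its macrophage markers, 63, of which 4 were higher and 59 lower in B beside a median shift of -0.25. Leaving out 1 library gave 10 (without B1 or C4) to 263 (without C3) calls, with 11 without B3, 16 without B2, 17 without C2, 18 without B4 and 25 without C1, and voom on recovered reads gave 22. No polarization gene passed under any of these. The log2 difference of Arg1 turned to -0.96 without C3 (range with 1 library left out -0.96 to 0.99) and that of Nos2 to 0.0045 without B3 and 0.0095 without C2 (range -0.83 to 0.0095). Scaled to macrophage markers, Arg1 was at -0.086, Mrc1 at -0.035 and Clec10a at -0.0032, while Irf4 (1.59) and Il10 (0.64) kept their sign. For Il10 with Irf4, r was 0.85 centred within prefixes and 0.63 without the 2 farthest libraries, and for Il10 with Clec10a 0.86 and 0.74, and none of these passed. The causes were not tested. At 2 to 24 reads for Il10 and 0 to 3 for Nos2, depth limits both.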
